A study of Mus musculus with 6 samples.

Results

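The 49 genes described here have titles that name a transcription factor, a zinc finger protein or a chromatin protein, and they stand on the authors' deposited list of probe sets higher in muscle spindle neurons. They were selected by a word search of the gene titles on that list (zinc finger, transcription, homeobox, forkhead, nuclear receptor, chromatin, chromodomain, histone or bromodomain), restricted to rows with 1 gene symbol. The search gave 51 probe sets of the 626 on the list, which itself was drawn from 45037 probe sets that are not controls. The list was chosen on the same arrays, with limits of 5-fold and a p-value of 0.08, so every member reads higher in the muscle spindle group by construction. The differences between the groups are therefore a description, and counts from a fit over all probe sets are printed below without being read as a test of the members.

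Proprioceptive sensory neurons tell the spinal cord about muscle length and load. Those that end on muscle spindles (MS) and those that end on Golgi tendon organs (GTO) were collected from the dorsal root ganglia of mice aged 7 to 10 days after birth. Each group had 3 samples with 1 array per sample, pooled over several sorts, with about 1250 neurons per MS sample and 725 per GTO sample. All 6 samples came from mice of both sexes on a mixed C57bl/129sv background that carried Egr3::WGA-cherry, PV:Cre and Thy1-lsl-YFP. MS samples were enriched in Cherry+YFP+ neurons and GTO samples in Cherry-YFP+ neurons, after papain and collagenase/dispase digestion. YFP thus marks cells with a history of parvalbumin-driven Cre, and Cherry depends on an Egr3 transgene. The gates separate neurons by these reporters, not by the ending that each neuron makes in muscle.

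Transcription factors bind DNA at short sequences and recruit or block RNA polymerase, while chromatin proteins move, modify or read the nucleosomes that package DNA. In dorsal root ganglia, factors such as Runx3 and Etv1 are known for the specification and maturation of proprioceptors. Zinc fingers are folds held by a zinc ion. Many bind DNA, but others bind lipids, proteins or RNA. By textbook function, 42 of the 49 genes act in transcription or chromatin. The other 7 were caught by a word in the title: Zdhhc14, Zfand2a, Zfand5, Zfyve19, Cdt1, Cnot2 and Tfb1m.

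All values are deposited log2 values, on which 1 unit is a doubling, and a level under log2 4 was treated as not well above background. The arrays themselves differed: the upper quartile of all probe sets was 6.78 to 6.86 on MS arrays and 6.67, 6.20 and 5.55 on GTO arrays 1, 2 and 3. Number of neurons and array signal both follow the groups and cannot be told apart from the neuron class. In such bulk samples, fewer cells of a type and less RNA per cell cannot be told apart either. Of 8 proprioceptor markers (Pvalb, Runx3, Etv1, Ntrk3, Spp1, Whrn, Cntnap2 and Slc17a7), Whrn stood on the list. Whrn read 3.15, 5.11 and 6.61 on MS arrays 1, 2 and 3, against 2.31, 2.35 and 2.28 on GTO arrays 1, 2 and 3. It was thus under log2 4 on MS array 1 and on every GTO array. The other markers could not be named on these arrays, so the labelled cell type could not be checked further. Among markers of other cells, the list held 1 of 10 for Schwann cells (Mbp, 6.40 in MS and 2.82 in GTO) and 1 of 8 for fibroblasts (Sparc, 8.56 in MS and 3.61 in GTO). It held 0 of 8 each for satellite glia, macrophages and vessel cells, and 2 of 15 for other sensory neurons (Plxnc1 and Gfra2). Gfra2 was high in both groups, at 12.30 in MS and 9.75 in GTO. Plxnc1 measured 9.06 in MS and 4.64 in GTO with one probe set and 6.97 in MS and 4.26 in GTO with another. The summed level of such a marker list could not be formed, since genes outside the list are not named, and the part of these cells in the members' values was not tested.

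At the median, the members lay well above log2 4 on the MS arrays and near it on the GTO arrays, which the selection favours. Single members differed, and the highest GTO mean was 7.11 (Baz2a). The median member read 8.14, 7.96 and 7.47 on MS arrays 1, 2 and 3, against 4.64, 3.48 and 3.75 on GTO arrays 1, 2 and 3. The median over the other 575 listed probe sets was 7.76, 7.75 and 7.20 on the MS arrays and 4.45, 3.41 and 3.36 on the GTO arrays, close to the members on each array. Over all 16256 probe sets that reached log2 4 on at least 3 arrays, the medians lay between 8.15 and 8.24 in MS and between 7.45 and 8.09 in GTO. The median log2 difference, MS minus GTO, was 3.39 over the 51 members and 0.31 over all tested probe sets. Counted over the GTO arrays, 14 of the 51 members never reached log2 4, another 14 reached it on 1 array, 12 on 2 arrays and 11 on all 3. In this order, the shares were 27.5%, 27.5%, 23.5% and 21.6% of the members. They were 33.6%, 26.8%, 18.1% and 21.6% of the other listed and 1.38%, 7.93%, 17.5% and 73.2% of all tested probe sets. The selection of the list favours low GTO values, so nothing is read from these counts. Across the MS arrays, 1 value of 1 member was under log2 4. A member that was under log2 4 on every GTO array is given below as "at least" a fold, taken from the MS mean against the level of log2 4. Folds of members under log2 4 on 1 or 2 GTO arrays are ratios of the group means as deposited. They include values not well above background and are less certain, as are the medians over a role that hold them.

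**Figure D1:**
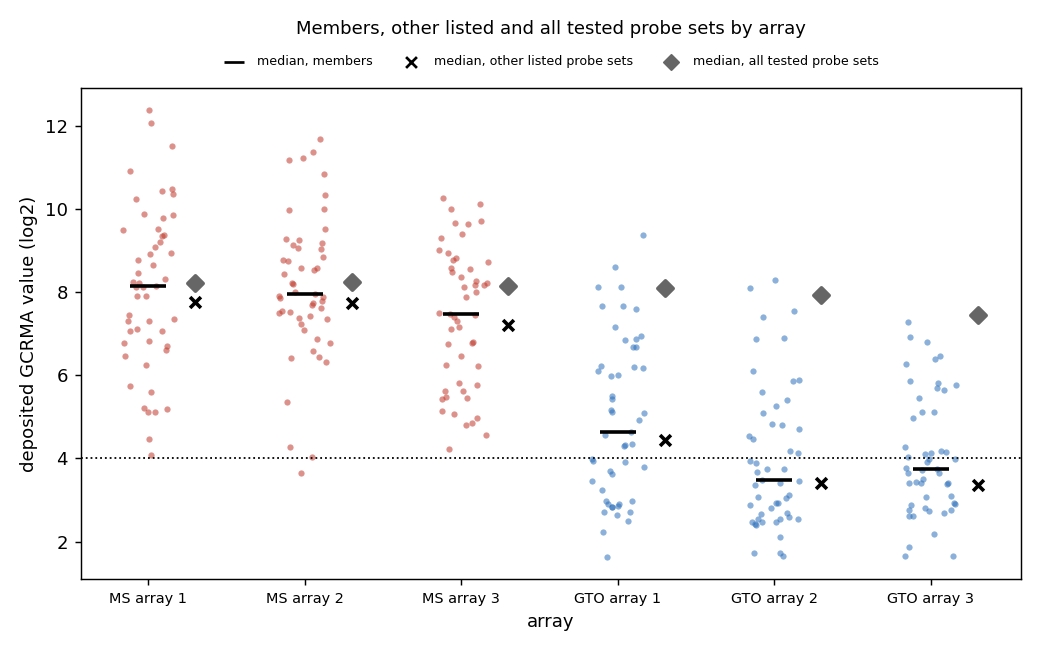
Deposited log2 value of each of the 51 member probe sets on every array (points; MS red, GTO blue), with the median over members (bar), over the other 575 listed probe sets (cross) and over all 16256 tested probe sets (diamond); the dotted line is log2 4. The members' medians are 7.47 to 8.14 on MS arrays and 3.48 to 4.64 on GTO arrays, and the cross lies near the bar on each array.

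Each MS array lay above each GTO array for 46 of the 51 members (90.2%), against 9.90% of all tested probe sets and 95.0% of the other listed probe sets. The selection favours such separation, and nothing is read from the count. In the fit over all tested probe sets, limma called 0 of the 50 members that passed the filter on low values at an adjusted p of 0.05, against 0.0185% of all tested probe sets. At an unadjusted p under 0.05 it counted 50 of the 50, against 6.48% of all tested probe sets higher in MS, and the selection of the list favours this count. The filter favours it too. A member under the filter's level on every GTO array passed only if it reached that level on every MS array. Nothing is therefore read from this count. Zfp84 was the member that did not pass the filter. The rule of the list itself holds for 1.39% of all probe sets and for each member by definition.

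**Figure D2:**
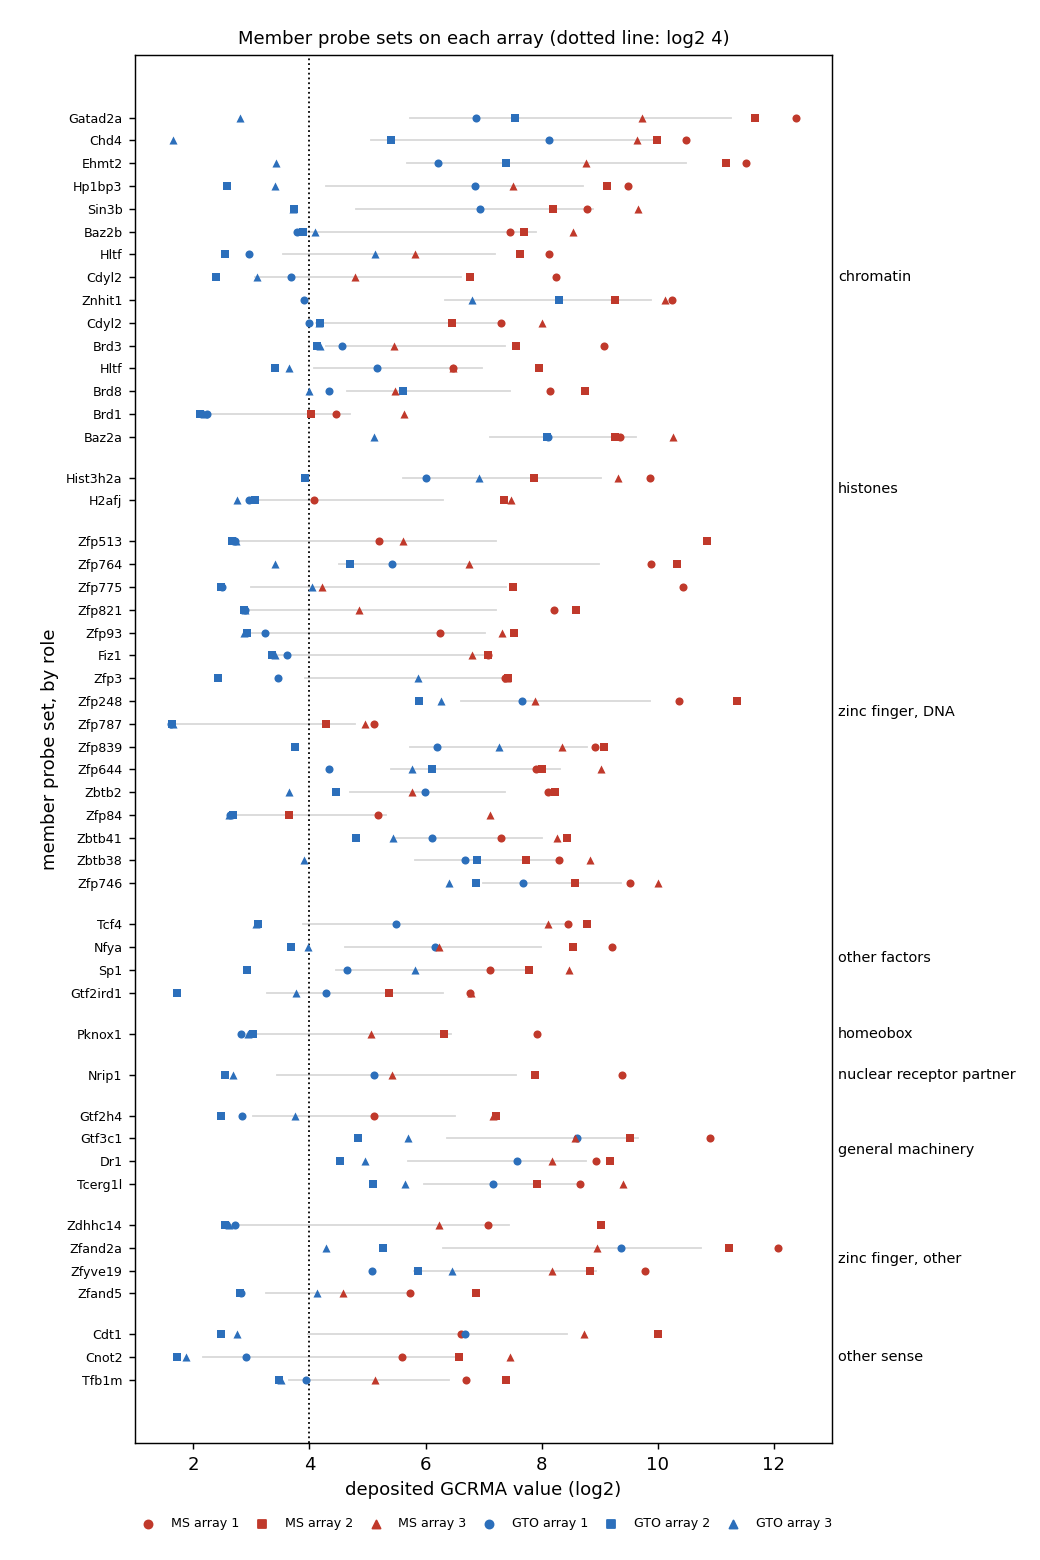
Deposited log2 value of 50 of the 51 member probe sets on MS arrays 1 to 3 (red) and GTO arrays 1 to 3 (blue), grouped by role and ordered by fold within a role; the grey line joins the group means and the dotted line is log2 4. Hltf and Cdyl2 have 2 probe sets each. The red and blue points overlap for 5 probe sets: Cdt1, Zfand2a, Gtf3c1, Brd8 and Zbtb2.

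Chromatin enzymes, remodellers and readers made up 13 genes and 15 probe sets, of which 2 were under log2 4 on all GTO arrays. The folds of the group means lay between 5.72 and 46.0 for the other 13 probe sets, and the median over the 15 was 11.6 with those 2 at their bound. The NuRD complex removes acetyl groups from histones and slides nucleosomes, and both its scaffold subunit Gatad2a and its motor subunit Chd4 were members. Gatad2a had the largest fold of all members, 46.0, and read 12.37, 11.67 and 9.72 on MS arrays 1, 2 and 3, against 6.86, 7.53 and 2.80 on GTO arrays 1, 2 and 3. Chd4 followed at 31.5-fold, with 10.48, 9.98 and 9.64 on the MS arrays, against 8.13, 5.41 and 1.64 on the GTO arrays. In both genes GTO array 3 was far below the other GTO arrays. Without that array, the log2 difference of Gatad2a and Chd4 was 4.06 and 3.27, against 5.52 and 4.98 with all arrays. Their ranks among the 51 members were then 10 and 30, against 1 and 2. With all arrays and values under log2 4 set to 4, the differences were 5.12 and 4.19.

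Ehmt2 (G9a), which methylates lysine on histone H3 as a repressive mark, gave 11.52, 11.18 and 8.76 on the MS arrays, against 6.21, 7.39 and 3.43 on the GTO arrays, and GTO array 3 was again the lowest. In all, 5 members read more than 2 log2 units lower on GTO array 3 than on both other GTO arrays. Besides Gatad2a, Chd4 and Ehmt2 these were Baz2a, a subunit of the complex that silences ribosomal RNA genes, and Zbtb38, a reader of methylated DNA. Baz2a read 9.36, 9.26 and 10.26 on the MS arrays, against 8.12, 8.09 and 5.11 on the GTO arrays. Its paralog Baz2b, a bromodomain protein, behaved otherwise and was among the most even members, with 7.45, 7.69 and 8.55 on the MS arrays, against 3.79, 3.88 and 4.10 on the GTO arrays. The gap between the lowest MS and the highest GTO value was 3.35 for Baz2b and 1.14 for Baz2a. The Baz2a probe set is of a kind (ending in _s) that can match transcripts of several genes, so its value is less certain.

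Sin3b, a scaffold for histone deacetylases, read 8.77, 8.19 and 9.67 on the MS arrays, against 6.94, 3.74 and 3.72 on the GTO arrays. Hp1bp3, a relative of the linker histones that binds heterochromatin, read 9.49, 9.12 and 7.50 on the MS arrays, against 6.85, 2.58 and 3.41 on the GTO arrays. In both, GTO array 1 stood at nearly 7 while GTO arrays 2 and 3 were under log2 4. Znhit1, a subunit of the complex that installs the histone variant H2A.Z, had the opposite order, 10.24, 9.27 and 10.12 on the MS arrays, against 3.91, 8.30 and 6.81 on the GTO arrays, with its lowest value on GTO array 1.

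Bromodomains bind acetylated histones, and beside Baz2a and Baz2b the titles of Brd3, Brd8 and Brd1 name one. Brd3 averaged 7.36 ± 1.82 in MS and 4.29 ± 0.24 in GTO (SD, n = 3 each), and Brd8, a subunit of a histone acetyltransferase complex, 7.45 ± 1.74 in MS and 4.64 ± 0.85 in GTO. Brd8 overlapped between groups, since MS array 3 read 5.48 and GTO array 2 read 5.60. Brd1, a scaffold of another acetyltransferase complex, was dim in both groups, with 4.46, 4.03 and 5.63 on the MS arrays, against 2.23, 2.11 and 2.19 on the GTO arrays. It read at least 1.63-fold higher in MS, although the ratio of group means was 5.79.

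Hltf and Cdyl2 are the members with more than 1 probe set. Hltf, a motor protein of the SWI/SNF kind with a role at stalled replication forks, read 8.13, 7.63 and 5.82 on the MS arrays, against 2.97, 2.54 and 5.12 on the GTO arrays with the first probe set. Its second probe set read 6.47, 7.96 and 6.47 on the MS arrays, against 5.17, 3.41 and 3.65 on the GTO arrays. The probe sets disagree on GTO array 3, the highest GTO array for the first and the second highest for the other. Cdyl2, a chromodomain protein, read 8.25, 6.77 and 4.79 on the MS arrays, against 3.69, 2.39 and 3.10 on the GTO arrays with the first probe set and 7.31, 6.45 and 8.01 on the MS arrays, against 3.99, 4.18 and 4.16 on the GTO arrays with the second. Here the probe sets disagree on MS array 3, which was the lowest MS array for the first and the highest for the second. The log2 differences were 3.65 and 2.89 for Hltf, and 3.55 and 3.14 for Cdyl2. With values under log2 4 set to 4, they were 2.82 and 2.57 for Hltf, and 2.61 and 3.14 for Cdyl2, where the order turned. The first Cdyl2 probe set was under log2 4 on every GTO array and read at least 6.09-fold higher in MS. Both probe sets of a gene were on the list, so their shared direction was fixed by the selection.

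Histones themselves were represented by 2 members of the H2A family. Hist3h2a (now H2aw) read 9.86, 7.87 and 9.31 on the MS arrays, against 6.0, 3.93 and 6.91 on the GTO arrays, and H2afj (now H2aj), a variant H2A, 4.08, 7.35 and 7.47 on the MS arrays, against 2.97, 3.07 and 2.76 on the GTO arrays. H2afj was under log2 4 on each GTO array and just above it on MS array 1, which makes it at least 4.93-fold higher in MS. Leaving out MS array 1 gave at least 10.6-fold, and leaving out MS array 3 at least 3.28-fold. Histone genes resemble each other closely, and the signal of such probe sets may hold more than 1 of them.

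**Figure D3:**
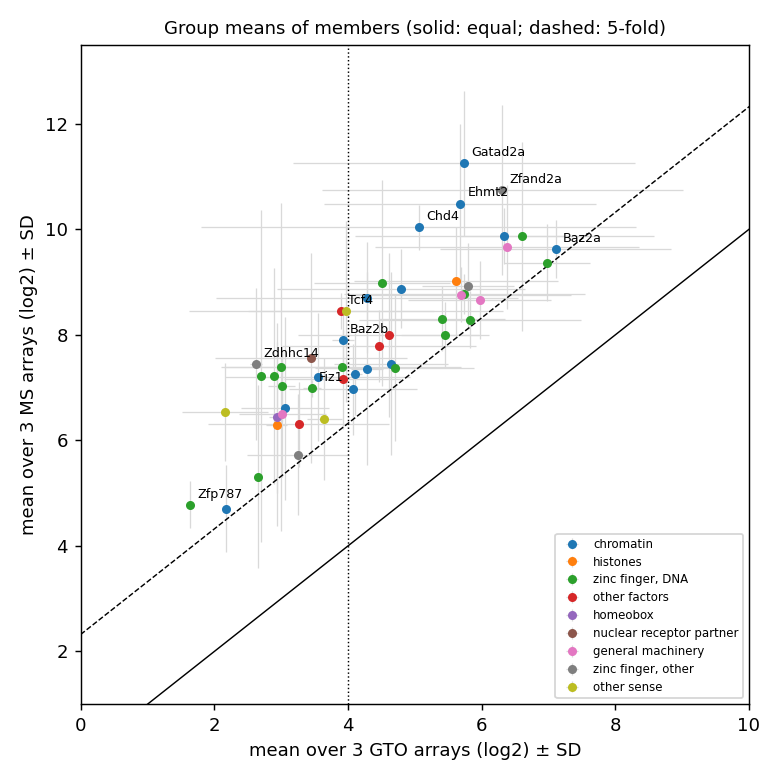
Mean over 3 MS arrays (vertical axis, log2) against mean over 3 GTO arrays (horizontal axis, log2) of each member probe set, with SD bars and colours by role; the solid line marks equal means, the dashed line 5-fold and the dotted line log2 4. Gatad2a lies farthest from the solid line, at 11.26 in MS and 5.73 in GTO, and all points lie above the dashed line because the list requires it.

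Zinc finger proteins of the kind that binds DNA were the largest role, with 16 genes. Of these, 6 were under log2 4 on all GTO arrays, and the folds of the other 10 lay between 5.22 and 22.2. The median over the 16 was 8.04 with those 6 at their bound. The functions of most are little known, and many such proteins recruit repressors to DNA. Zfp513, linked in humans to retinal degeneration, had 5.20, 10.84 and 5.62 on the MS arrays, against 2.71, 2.66 and 2.74 on the GTO arrays. Its GTO values lay at background and its MS mean rests on MS array 2. Without that array it was at least 2.66-fold higher in MS, against at least 9.32-fold with all arrays. Zfp775 was also uneven, with 10.44, 7.51 and 4.22 on the MS arrays, against 2.49, 2.47 and 4.04 on the GTO arrays, so that its gap between groups was 0.17. Zfp764 read 9.88, 10.34 and 6.75 on the MS arrays, against 5.43, 4.70 and 3.42 on the GTO arrays, with a probe set of a kind (ending in _x) that can bind other transcripts. Another listed probe set names Zfp764 together with 3 further genes.

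A few zinc finger genes were even within each group. They were picked for description after their values were seen. Fiz1, which was found as a partner of the receptor Flt3, read 7.07, 7.08 and 6.80 on the MS arrays, against 3.62, 3.35 and 3.41 on the GTO arrays. It averaged 6.99 ± 0.16 in MS and 3.46 ± 0.14 in GTO (SD, n = 3 each), at least 7.92-fold higher in MS. Zfp93 read 6.24, 7.53 and 7.31 on the MS arrays, against 3.24, 2.92 and 2.87 on the GTO arrays, at least 8.15-fold. Zfp787 averaged 4.78 ± 0.44 in MS and 1.64 ± 0.02 in GTO (SD, n = 3 each), so that its GTO values are at background and its MS values just above it, at least 1.72-fold. Fiz1 and Zfp787 were the 2 members with an SD under 0.5 in both groups (3.92% of members, against 3.83% of the other listed and 14.2% of all tested probe sets). With values under log2 4 set to 4, the gap between the lowest MS and the highest GTO value was 2.80 for Fiz1 and 2.24 for Zfp93, and Baz2b was the member with a gap over 3.

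Some zinc finger genes were above log2 4 on all 6 arrays. Zfp248 read 10.36, 11.37 and 7.89 on the MS arrays, against 7.66, 5.89 and 6.27 on the GTO arrays, with MS array 3 close to GTO array 1. Zfp746 (PARIS), a repressor of the gene for the mitochondrial regulator PGC-1alpha, read 9.52, 8.57 and 10.01 on the MS arrays, against 7.68, 6.87 and 6.40 on the GTO arrays and had the lowest fold of the members, 5.22. The factors with a BTB domain, through which such proteins pair and bind corepressors, were Zbtb2, Zbtb38 and Zbtb41. Zbtb38 read 8.30, 7.74 and 8.83 on the MS arrays, against 6.68, 6.89 and 3.91 on the GTO arrays. Zbtb41 averaged 8.0 ± 0.61 in MS and 5.45 ± 0.66 in GTO (SD, n = 3 each), clearly above log2 4 on each array. Zbtb2 overlapped between groups, with 5.77 on MS array 3 and 5.99 on GTO array 1.

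The remaining zinc finger genes of this role showed 3 kinds of GTO value. Zfp821 (2.89 ± 0.02 in GTO, SD, n = 3) and Zfp84 (2.65 ± 0.03) lay at background on all GTO arrays. Zfp821 read 8.21, 8.59 and 4.86 on the MS arrays, at least 9.32-fold higher in MS. Leaving out 1 MS array gave bounds of 5.80-fold to 21.1-fold. Zfp84 read 5.19, 3.64 and 7.12 on the MS arrays, at least 2.49-fold higher in MS, with bounds of 1.33-fold to 4.44-fold without 1 MS array. Zfp3 was nearly constant in MS, with 7.36, 7.42 and 7.40 on the MS arrays, against 3.45, 2.42 and 5.87 on the GTO arrays, but not in GTO. Zfp644, which is linked to myopia in humans, averaged 8.31 ± 0.62 in MS and 5.40 ± 0.94 in GTO, and Zfp839 averaged 8.78 ± 0.38 in MS and 5.74 ± 1.80 in GTO (SD, n = 3 each).

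Sequence-specific factors without a zinc finger title numbered 5, with Pknox1 and Nrip1 beside them. Tcf4, a helix-loop-helix factor that pairs with proneural factors, read 8.46, 8.78 and 8.11 on the MS arrays, against 5.49, 3.12 and 3.07 on the GTO arrays, a fold of 23.5. Its MS values were all above 8, while GTO array 1 stood above the other GTO arrays, which were under log2 4. With values under log2 4 set to 4, the log2 difference of Tcf4 was 3.95, against 4.56 as deposited. Nfya, the DNA-binding subunit of the factor that binds CCAAT boxes, read 9.22, 8.53 and 6.24 on the MS arrays, against 6.16, 3.68 and 3.98 on the GTO arrays, and the groups were separated by 0.07. Sp1, which binds GC boxes in many promoters, read 7.12, 7.78 and 8.48 on the MS arrays, against 4.64, 2.92 and 5.82 on the GTO arrays. Here each MS value was above 7 and each GTO value below 6.

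Gtf2ird1, a relative of the factor TFII-I, averaged 6.30 ± 0.81 in MS and 3.26 ± 1.35 in GTO (SD, n = 3 each). Pknox1 was the homeobox member, a partner of Pbx and Hox proteins, and read 7.92, 6.33 and 5.06 on the MS arrays, against 2.82, 3.04 and 2.93 on the GTO arrays. It lay at background on each GTO array and reads at least 5.40-fold higher in MS. Leaving out MS array 1 gave at least 3.23-fold, and leaving out MS array 3 at least 8.70-fold. Nrip1, a corepressor of nuclear receptors, read 9.38, 7.88 and 5.43 on the MS arrays, against 5.11, 2.54 and 2.69 on the GTO arrays, with a gap of 0.32 between MS array 3 and GTO array 1. No title with forkhead was found.

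Sp1 and Nfya are known for the short motifs they bind (for Sp1 GGGCGG, while the complex with Nfya binds CCAAT), so the promoters of the members were searched for these letters. RefSeq promoters (GRCm38.p6) were at hand for 42 of the 49 genes, with 59 starts, and the 250 bases before each start were read on both strands. GGGCGG was found for 33 of 42 member genes (78.6%), for 267 of 407 other genes of the list (65.6%) and for 8008 of 17491 protein-coding genes (45.8%). CCAAT was found for 21 of 42 (50%), 144 of 407 (35.4%) and 6905 of 17491 (39.5%). Here a gene counted if any of its starts matched, so genes with more starts had more chances. Counted per start, over 59, 546 and 21262 starts, GGGCGG was found for 69.49%, 57.51% and 42.62%. CCAAT was found for 38.98%, 30.04% and 35.37% of these starts. The median number of CpG pairs in these windows was 18, 17 and 10, and the median share of G and C was 64%, 60% and 55.6%. These are matches of letters, not sites, and no test was made. Below are the windows of Sp1, which holds both motifs, of Chd4 (the start farther upstream), which holds GGGCGG, and of Baz2b, which holds CCAAT. Capitals mark both motifs on either strand (they overlap once in Sp1), so the reverse strand of CCAAT reads as ATTGG.
Sp1, chr15:102406066-102406315, plus strand: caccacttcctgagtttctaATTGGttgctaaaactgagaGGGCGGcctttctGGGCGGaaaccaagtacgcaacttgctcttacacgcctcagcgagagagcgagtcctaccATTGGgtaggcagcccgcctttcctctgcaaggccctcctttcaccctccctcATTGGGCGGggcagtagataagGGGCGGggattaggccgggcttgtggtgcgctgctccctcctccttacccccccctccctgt
Chd4, chr6:125095731-125095980, plus strand: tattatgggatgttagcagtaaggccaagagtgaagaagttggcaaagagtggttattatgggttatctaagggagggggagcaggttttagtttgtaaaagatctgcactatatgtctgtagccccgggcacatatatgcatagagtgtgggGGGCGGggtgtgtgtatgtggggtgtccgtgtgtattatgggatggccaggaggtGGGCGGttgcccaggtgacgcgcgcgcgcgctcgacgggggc
Baz2b, chr2:60125741-60125990, minus strand: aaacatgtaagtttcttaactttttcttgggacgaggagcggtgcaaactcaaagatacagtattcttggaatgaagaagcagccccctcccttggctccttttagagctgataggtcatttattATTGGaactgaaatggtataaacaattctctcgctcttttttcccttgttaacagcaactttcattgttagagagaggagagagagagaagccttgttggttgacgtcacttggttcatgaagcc
The Sp1 window holds 4 matches of GGGCGG and 3 of CCAAT, the Chd4 window 2 and 0, and the Baz2b window 0 and 1. The window of the other Chd4 start holds 3 and 1.

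General transcription machinery gave 4 members. Gtf2h4, a subunit of the factor TFIIH that opens promoter DNA and repairs lesions, read 5.12, 7.22 and 7.16 on the MS arrays, against 2.84, 2.47 and 3.75 on the GTO arrays. It was at least 5.65-fold higher in MS. The bound was 9.13-fold without MS array 1, 4.40-fold without MS array 2 and 4.50-fold without MS array 3. Gtf3c1, the largest subunit of the factor that recruits RNA polymerase III to transfer RNA genes, read 10.90, 9.52 and 8.57 on the MS arrays, against 8.61, 4.83 and 5.69 on the GTO arrays. It overlapped, since GTO array 1 was just above MS array 3. Dr1, which binds the TATA-binding protein and blocks initiation, averaged 8.76 ± 0.52 in MS and 5.69 ± 1.65 in GTO, and Tcerg1l, which resembles an elongation regulator, 8.66 ± 0.74 in MS and 5.97 ± 1.07 in GTO (SD, n = 3 each). Gtf3c1, Dr1 and Tcerg1l were above log2 4 on all 6 arrays.

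The 7 genes caught by a word in the title fall into protein transport, protein turnover, replication, RNA decay and mitochondria. Zdhhc14, a palmitoyltransferase that attaches lipid to proteins, read 7.07, 9.03 and 6.23 on the MS arrays, against 2.72, 2.54 and 2.62 on the GTO arrays. It was at background on each GTO array, which makes it at least 10.9-fold higher in MS. Leaving out MS array 2 gave at least 6.28-fold, and leaving out MS array 3 at least 16.59-fold. Zfand2a, an arsenite-inducible protein that works with the proteasome, read 12.07, 11.23 and 8.95 on the MS arrays, against 9.37, 5.27 and 4.28 on the GTO arrays. It overlapped between the groups, with GTO array 1 above MS array 3. Zfand5, a relative with a similar role, read 5.74, 6.87 and 4.57 on the MS arrays, against 2.83, 2.81 and 4.13 on the GTO arrays. Zfyve19, a lipid-binding protein that guards the last step of cell division, was above log2 4 throughout, at 8.93 ± 0.81 in MS and 5.80 ± 0.69 in GTO (SD, n = 3 each).

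Cdt1 loads the replicative helicase onto DNA and is known from dividing cells. It read 6.60, 10.0 and 8.73 on the MS arrays, against 6.68, 2.47 and 2.76 on the GTO arrays, and GTO array 1 was just above MS array 1. Cnot2, a subunit of the complex that shortens poly(A) tails, read 5.60, 6.58 and 7.45 on the MS arrays, against 2.90, 1.72 and 1.88 on the GTO arrays, at least 5.83-fold higher in MS. Its probe set also ends in _s. Tfb1m, which methylates mitochondrial ribosomal RNA, read 6.69, 7.38 and 5.14 on the MS arrays, against 3.94, 3.48 and 3.51 on the GTO arrays, at least 5.29-fold. The bound was 4.79-fold without MS array 1, 3.77-fold without MS array 2 and 8.21-fold without MS array 3.

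Within the groups, the order of the arrays was uneven. MS array 3 was the lowest MS array for 27 of 51 members (52.9%), against 51.7% of the other listed and 36.8% of all tested probe sets. For 11 members it read more than 2 log2 units below both other MS arrays, among them Zfp821, Zfp764, Nrip1, Nfya and Brd3. In GTO, array 1 was the highest for 29 members (56.9%), against 51.1% of the other listed and 36.4% of all tested probe sets. For 10 members it exceeded both other GTO arrays by more than 2 log2 units: Chd4, Tcf4, Cdt1, Zfand2a, Hp1bp3, Nrip1, Sin3b, Nfya, Gtf3c1 and Dr1. GTO array 2 was the lowest for 28 members (54.9%, against 39.7% of the other listed and 36.3% of all tested probe sets). The median SD of a member was 1.03 in MS and 0.94 in GTO, against 0.69 and 0.98 over all tested probe sets.

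By the authors' deposited table, the lowest folds belonged to Zfp746 (5.22), Zbtb38 (5.51) and Zfand5 (5.55), and the highest p-values to Zfp775 (0.079), Baz2a (0.0739) and Zbtb38 (0.0712). Just outside, when the rule was applied to the deposited values, lay an unnamed probe set with a fold of 4.9998, under the minimum of 5, and another with a fold of 30.2 whose p-value of 0.0801 missed the limit.

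How firmly a member meets the rule of the list varied with the arrays and the scaling. Without MS array 1, MS array 2 or GTO array 2, 27 of the 51 members still met it, 31 without GTO array 3, 36 without MS array 3 and 38 without GTO array 1. Over all probe sets, the rule held for 489, 492, 653, 438, 934 and 936 in these settings, in the same order (0.97% to 2.08%), against 626 with all arrays. The 5-fold limit alone was met by 45 to 49 members in these settings. Members were chosen at this limit on the same arrays. The share of all probe sets at 5-fold alone was not counted, so nothing is read from it. After quantile normalization 36 members and 400 of all probe sets met the rule, and 37 and 429 after centring on the median of the tested probe sets. The 18 probe sets that met it without each array in turn and after both re-scalings included those of Zdhhc14, Tcf4, Zfp764, Cnot2, Zfp821, Sin3b, Zfp93, Baz2b, Fiz1, Pknox1, Gtf2h4, Sp1, Cdyl2 (second probe set), Zfp787, Zfyve19, Zfp644 and Hltf (second probe set). Gatad2a, Chd4 and Ehmt2, with the largest folds among the chromatin genes, met it without 4, 2 and 4 of the 6 arrays.

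**Figure D4:**
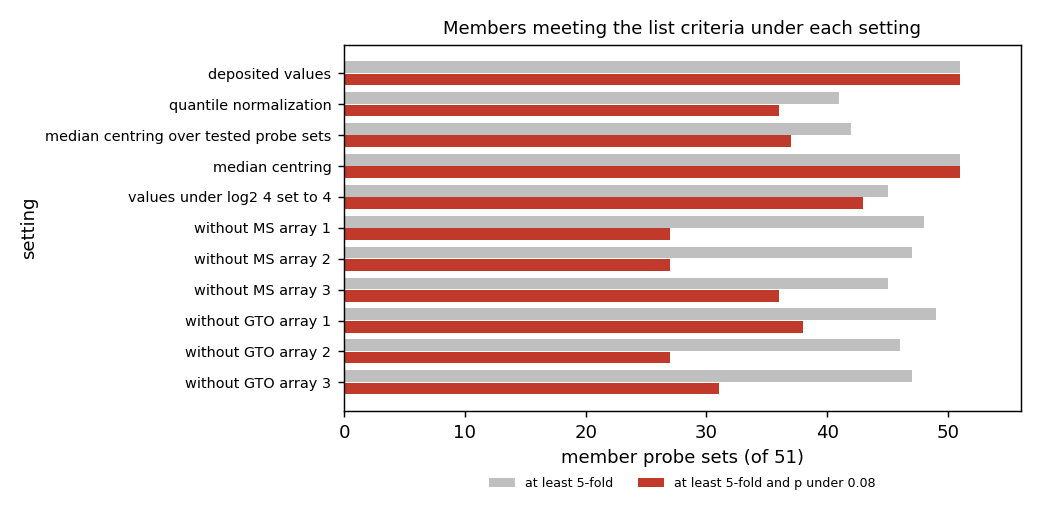
Number of member probe sets, of 51, at least 5-fold higher in MS (grey) and also at a p under 0.08 (red), for the deposited values, other scalings and each array left out. The red bars range from 27 without MS array 1, MS array 2 or GTO array 2 to 51 for the deposited values and for centring on the median of all probe sets. For the grey bars, the share of all probe sets was not counted.

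The wider machinery of transcription and chromatin was searched on the deposited list with 13 gene lists of 507 genes in all, of which 33 stood on it. Of these, 14 are members and 19 have titles without any of the search words. The array annotation was not used here, so no share of the measured genes can be given, and the counts do not show enrichment. The list of general transcription machinery had 9 of 60 genes: the members Gtf2h4 and Gtf3c1, and Polr2a, Ccnt2, Supt3, Taf4, Taf4b, Taf5 and Taf11. Polr2a, the catalytic subunit of RNA polymerase II, read 6.68, 6.39 and 7.10 on the MS arrays, against 2.58, 2.96 and 2.63 on the GTO arrays. Taf4, a scaffold of the factor TFIID, read 9.01, 9.23 and 10.13 on the MS arrays, against 7.62, 2.81 and 5.79 on the GTO arrays, with GTO array 2 at background. The Taf4 probe set also ends in _s. Taf5 measured 8.45 in MS and 4.33 in GTO, and Ccnt2, the cyclin of an elongation kinase, 8.85 in MS and 4.95 in GTO. Taf4b, Supt3 and Taf11 measured 7.61 in MS and 4.29 in GTO, 7.74 in MS and 4.92 in GTO, and 8.44 in MS and 6.01 in GTO.

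Remodellers of the ISWI, CHD and INO80 kinds had 6 of 35 genes on the list, the members Gatad2a, Chd4, Baz2a and Baz2b together with Atrx and Rsf1. Atrx, which keeps repeats silent, read 9.42, 9.65 and 6.51 on the MS arrays, against 7.27, 3.01 and 3.12 on the GTO arrays, and Rsf1 measured 7.26 in MS and 4.05 in GTO. Histone methylation had 4 of 50: the member Ehmt2, Prmt5, and the pair Kdm3b and Kdm5c, which remove methyl groups from histone H3. Prmt5 is the enzyme that methylates arginine. Kdm3b measured 6.22 in MS and 3.11 in GTO, Prmt5 6.37 in MS and 3.30 in GTO, and Kdm5c 5.87 in MS and 2.85 in GTO with one probe set and 7.16 in MS and 4.45 in GTO with another. Histone acetylation had 4 of 35, all members (Brd1, Brd3, Brd8 and Sin3b), and DNA methylation 1 of 17 (Zbtb38). Mediator had 2 of 33, Med20 (9.16 in MS and 6.31 in GTO) and Med23 (6.86 in MS and 4.18 in GTO). Coregulators of nuclear receptors had 2 of 23, Nrip1 and Tbl1xr1 (8.77 in MS and 6.44 in GTO). The probe sets of Prmt5 and Tbl1xr1 and the second of Kdm5c also end in _s.

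A gene list of mainly leucine zipper, helix-loop-helix and stress factors, which also holds factors of other families such as Mef2c and Mef2d, had 5 of 63 genes: Tcf4, Nfe2l2, Bach1, Mef2c and Mef2d. Nfe2l2, the activator of antioxidant genes, and Bach1, a repressor at the same DNA element, were both listed. Bach1 read 9.03, 9.19 and 7.92 on the MS arrays, against 7.74, 2.99 and 3.0 on the GTO arrays, with GTO array 1 apart from the other GTO arrays, and Nfe2l2 8.11, 8.81 and 7.60 on the MS arrays, against 2.74, 2.88 and 2.83 on the GTO arrays, with all GTO arrays at background. Mef2c, an activity-dependent factor, measured 10.87 in MS and 7.55 in GTO, and Mef2d 8.43 in MS and 6.08 in GTO. Of 50 identity factors of sensory neurons, which include Runx3, Etv1, Egr3, Pou4f1 and Isl1, 0 stood on the list. The same held for 52 Hox genes, 48 nuclear receptors, 26 SWI/SNF subunits and 22 subunits of Polycomb complexes. A gene that is alike in both groups or higher in GTO could not stand on the list, so this says nothing of their levels.

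By gene order in RefSeq, the members were scattered. The nearest pair, Tfb1m and Zdhhc14, had 6 protein-coding genes between them, and Zfp746 and Zfp775 had 8. The last pair did not share an array pattern: Zfp746 read above log2 6 on all arrays, while Zfp775 was at 2.49 and 2.47 on GTO arrays 1 and 2.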

How the data were processed

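RNA of 3 MS and 3 GTO samples was amplified and hybridised to 1 array each, per the labels' protocols. The deposited log2 values were made with GCRMA (background by probe sequence, quantile normalization, summary of probes), and Partek is also named, both per the submitters' processing notes and without a version. Array annotation and genome build: not given in the sources used here. Also deposited by the authors was a list giving each probe set's p-value and linear ratio of MS over GTO, with limits of 5-fold and p = 0.08, per the file headers, with F statistics and sums of squares, which are other values that the authors deposited and were not used. Folds recomputed from the group means differed from the deposited ones by at most 1.8e-05 (relative).

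Symbols were matched to RefSeq (GRCm38.p6) by Entrez identifier, which placed all 51 members and renewed 2 symbols. Besides 2 rows with several symbols, 1 further gene was left out, and 1 member that the counts include is not reported here. The members and gene lists were chosen with earlier results of these data known. Values on every array were given for members with the largest folds, highest group means, more than 1 probe set, the largest folds of each role, the limits of the list and overlap between groups. Other members were added after their values were seen.

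Probe sets that reached log2 4 on 3 or more arrays (16256 without controls) were fitted with limma 3.58.1 in R 4.3.3 (lmFit, eBayes, two-sided, no covariate, Benjamini-Hochberg). The rule of the list used the equal-variance statistic on log2 values. The fit was tested on simulated data. The labels call the samples biological replicates. Their animals were not given, so the spread is that between pools. The number of arrays limits the precision. No 2 arrays held identical values (correlations 0.850 to 0.943). GTO array 1 correlated at 0.913 to 0.943 with the MS arrays and at 0.892 and 0.890 with GTO arrays 2 and 3. Same-numbered MS and GTO arrays deviated from their group means with correlations of -0.06, 0.10 and 0.11, and differently numbered ones with -0.17 to 0.09. These values do not settle whether arrays were paired. The labels do not state a pairing, so none was used in the main fit. Alternatives were other scalings, a floor, other filters and variance models, a replicate block and leaving out arrays.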

Additional observations from a re-analysis of the deposited data

How the results depend on the processing

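Under the alternatives tried, limma called 0 members at an adjusted p of 0.05, except that Fiz1 alone passed with no filter on low values (count 1, adjusted p = 0.0225) and by the ordinary statistic (count 1, adjusted p = 0.0460). Over all probe sets fitted, in either direction, 12 passed with no filter and 3 by the ordinary statistic. With the replicate block the count was 0 for members and 0 for all tested probe sets. The block kept 35 members under the rule of the list. Leaving out any 1 array also gave 0 members and 0 of all tested probe sets, with 37 to 46 members at an unadjusted p under 0.05. The shares of all probe sets beside the 35 and the 37 to 46 were not counted, so nothing is read from them. Leaving out 1 array gave 27 to 38 members under the rule of the list, 46 to 50 without overlap (13.3% to 20.3% of all tested probe sets, against 9.90% with all arrays) and a median log2 difference of 3.12 to 3.62, against 51, 46 and 3.39 with all arrays. The cause was not tested, but each such comparison has fewer arrays. The median was 2.90 after quantile normalization, 3.02 after centring on tested probe sets, 3.50 after centring on all probe sets and 2.99 with values under log2 4 set to 4. The median over all tested probe sets was 0.31 as deposited, and 0.02, -0.06 and 0.42 under these scalings. Without GTO arrays 2 and 3, chosen after seeing the data, it was 2.92 over members and 0.05 over all tested probe sets, with 47 members free of overlap (28.1% of all tested probe sets). Leaving out 1 of the 3 arrays of a group moves its mean by less than its SD, whatever the values. The 5-fold limit of the list also favoured the sign. The count that follows is therefore no measure of stability. Of 510 differences of the 51 members under 10 alternatives, 501 moved by less than the larger SD of the groups and none changed sign. Those that moved more were Cnot2 (2.54), Zfp93 (3.03), Fiz1 (2.99), Zfp787 (0.78) and Brd1 (0.71) with the floor at log2 4, Baz2b (3.31), Fiz1 (3.11) and Zbtb41 (1.89) after quantile normalization, and Fiz1 (3.15) after centring on tested probe sets. Centring on tested probe sets was also added after seeing the data.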

Other observations

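Among listed rows that carry several symbols, 2 hold a word of the search and stand outside the description above. The first names 4 zinc finger or unnamed genes, among them Zfp747 and Zfp764, and read 11.10, 9.97 and 9.11 on MS arrays 1, 2 and 3, against 5.44, 3.95 and 4.53 on GTO arrays 1, 2 and 3. The member probe set of Zfp764 also had its lowest MS value on MS array 3 and its highest GTO value on GTO array 1. The second names 11 histone H2B genes and read 8.54, 8.66 and 8.56 on the MS arrays, against 3.63, 5.03 and 5.21 on the GTO arrays. Its MS values were the closer together, and unlike most members it was lowest on GTO array 1.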
